A study of Bos taurus with 36 samples.

Results

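The genes described here code for the troponins, the alpha actins, tropomyosin 1 and titin, measured in 3 organs of bovine fetuses (heart, gonads and liver) and in the blood of the heifers that carried them. They were taken as the entries of the count table whose Entrez gene carries one of 10 symbols in the bovine RefSeq gene list (TNNT2, TNNI1, TNNI3, TNNC1, TNNT1, ACTC1, ACTA1, ACTA2, TPM1 and TTN). All 10 were found, each once, among 35092 genes. The rule itself reads the symbols alone.

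All fetuses were male and were collected on Day 42 of gestation. Embryos were transferred at the age of 7 days. Recipients of the group ET_D7 (synchronous) were themselves on Day 7 of the cycle at transfer and those of the group ET_D9 (asynchronous) were on Day 9, so the groups differ in the state of the uterus at transfer and share the age of the embryo. Numbers from 1 to 10 order the fetuses by weight, the lightest (fetus 1) weighing 1.253 g and the heaviest (fetus 10) 1.69 g, and fetuses 1 to 5 are ET_D7 while fetuses 6 to 10 are ET_D9. The lightest 5 fetuses are therefore the ET_D7 fetuses, and weight and transfer group cannot be told apart. Heart RNA was sequenced from 9 fetuses (5 ET_D7 and 4 ET_D9), gonad RNA from 9 (4 and 5), liver RNA from 8 (5 and 3) and maternal blood RNA from 10 heifers (5 and 5).

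Heart muscle contracts when calcium binds troponin C. Troponin I, which holds actin and myosin apart at rest, then lets go, and troponin T anchors the complex to tropomyosin along the actin filament. Troponins I and T each have a slow skeletal, a fast skeletal and a cardiac gene, while troponin C has a fast gene and a gene used by slow and cardiac muscle alike. The developing mammalian heart is known to express the slow skeletal troponin I gene TNNI1 and to replace it with the cardiac gene TNNI3 as it matures. The alpha actins are used in a similar way. ACTC1 is the cardiac form, ACTA1 the skeletal form and ACTA2 the smooth muscle form, and immature heart muscle can contain all of them. Titin spans the sarcomere from its edge to its centre and acts as its spring.

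The total count per library was between 18231089 and 39649051 in the organs and between 26602415 and 40812354 in blood. Mitochondrially encoded genes took between 17.1% and 57.3% of the counts of a heart library, so levels are in CPM (a gene's count relative to the library's effective total) after TMM normalization, which scales the libraries to each other by the bulk of their genes. The summed CPM of 7 cardiomyocyte markers was 19691 to 23212 in the heart and at most 23.0 in the gonads and 125 in the liver. PLN, a member of that marker list, was listed at 0 in all libraries, heart included. In the gonads, which the labels call testicle, 5 testis markers summed to 3.31 to 14.3 CPM and 5 markers of mesonephros and kidney to 297 to 399 CPM. The testis list was not higher in the gonads than elsewhere, with 13.2 to 19.5 CPM in the heart and 0.654 to 22.1 CPM in the liver. The mesonephros and kidney list had 10.8 to 14.2 CPM in the heart and 117 to 275 CPM in the liver. Its member CDH16 had 97.4 to 253 CPM in the liver and 2.68 to 5.76 CPM in the gonads. In bulk samples such as these, fewer cells of a type and less RNA per cell cannot be told apart.

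Several libraries stood apart. The gonad libraries of fetuses 6 and 8 were nearly proportional to each other, since 90.8% of the 9227 genes with at least 500 counts in both had a ratio within 1% of 1.27. The ratios of the 10 genes in this pair were 1.27 to 1.29, closer to that common ratio than counting noise would place independent libraries (largest z 0.125). The liver libraries of fetuses 1 and 2 showed the same feature in part (33.2% of 5461 genes, within 1% of 1.04), and the highest share in the other 143 pairs of libraries of a tissue was 11.1%. Each of these pairs was averaged and counted as 1 sample in the means for gonads (n = 8) and liver (n = 7) below. The fold changes and slopes, with their standard errors and p-values, were fitted on all 9 gonad and 8 liver libraries unless some are said to be left out. The liver libraries of fetuses 3, 4 and 5 were the highest in ACTC1, and the blood libraries of the heifers carrying fetuses 2 and 5 held muscle transcripts that the other blood libraries held little of. These libraries are described with the results that rest on them.

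All 10 genes were higher in the fetal heart than in gonads and liver alike (edgeR's quasi-likelihood test over the 26 organ libraries, Benjamini-Hochberg adjusted p under 0.05 against both). Over all 25095 genes tested this held for 11.1%. The smaller of the 2 log2 fold changes had a median of 4.95 over the 10 genes and of −0.84 over all genes tested. It was 6.85 for TNNC1, 8.01 for TNNI1, 10.05 for TNNT2 and 10.63 for TNNI3, whereas ACTA2 and TNNT1 were separated from the liver by 1.58 and 2.51.

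**Figure D1:**
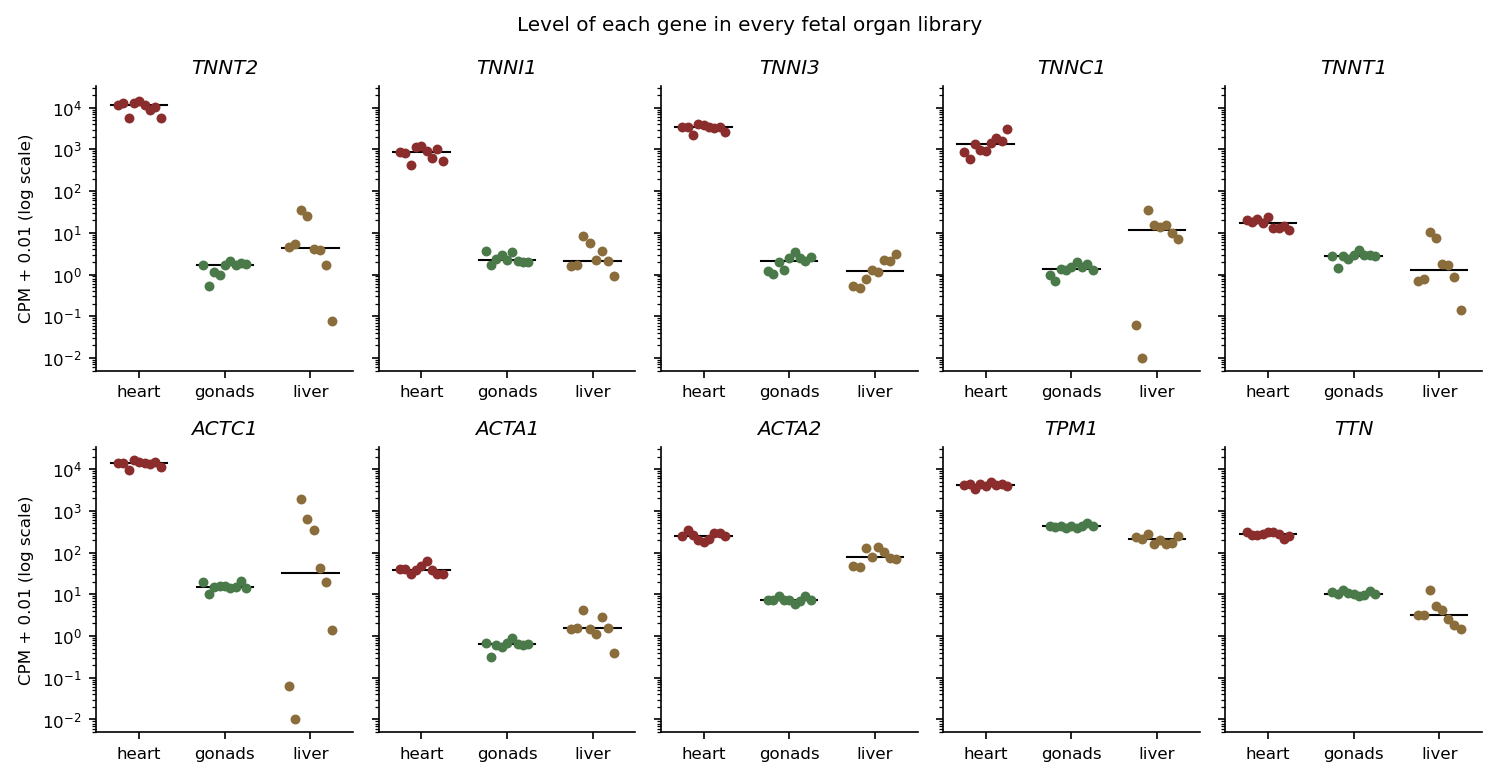
Level of each of the 10 genes in every fetal organ library. The vertical axis is CPM plus 0.01 on a log scale, each point is a library, in order of fetal weight from left to right within an organ, and the line is the median. The heart libraries lie above every gonad and liver library for each gene, and the liver libraries spread widely for ACTC1, TNNC1 and TNNT2. How many of all genes separate the heart libraries completely was not counted.

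TNNT2 codes for cardiac troponin T. Its lowest, median and highest level in the 9 hearts were 5553, 11625 and 14900 CPM, a mean of 10473 ± 3239 CPM (SD, n = 9). The gonads averaged 1.47 ± 0.534 CPM (SD, n = 8) and the livers 10.7 ± 13.5 CPM (SD, n = 7). The heart exceeded the gonads by 12.77 on the log2 scale (standard error 0.798, adjusted p = 1.19e-13, edgeR) and the liver by 10.05 (adjusted p = 3.87e-12, standard error 0.766, edgeR). The hearts of fetuses 3 and 10 were the lowest, at 5553 and 5689 CPM, and no other heart was under 8710 CPM.

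TNNT1, the slow skeletal troponin T, was the gene with the smallest separation from the gonads. Its heart level was 12.0, 17.2 and 23.8 CPM at the lowest, median and highest, whereas gonads averaged 2.72 ± 0.657 CPM (SD, n = 8) and livers 3.33 ± 4.04 CPM (SD, n = 7). The log2 fold changes were 2.64 over the gonads (standard error 0.486, adjusted p = 4.75e-05, edgeR) and 2.51 over the liver (adjusted p = 0.00012, standard error 0.510, edgeR). The highest liver, that of fetus 3, reached 10.6 CPM, just under the lowest heart.

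Troponin I was measured as TNNI1 and TNNI3. TNNI3 had 2168, 3492 and 4093 CPM at the lowest, median and highest in the heart, and TNNI1 had 419, 852 and 1194 CPM. In the gonads the means were 2.04 ± 0.852 CPM for TNNI3 and 2.54 ± 0.731 CPM for TNNI1 (SD, n = 8). In the liver they were 1.60 ± 0.933 CPM and 3.52 ± 2.71 CPM (SD, n = 7). TNNI3 was thus higher in the heart by 10.63 over the gonads and 11.16 over the liver on the log2 scale (standard errors 0.384 and 0.419, adjusted p = 7.54e-19 and 7.62e-19, edgeR). TNNI1 was higher by 8.40 and 8.01 (standard errors 0.388 and 0.407, adjusted p = 1.65e-16 and 5.31e-16, edgeR). In the annotation of the assembly ARS-UCD2.0, whose build differs from that of the counts, TNNI3 and TNNT1 are neighbouring genes, and TNNI1 and TNNT2 have LAD1 between them.

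TNNC1, the troponin C of cardiac and slow skeletal muscle, varied more among hearts than any other of the 10 genes, with a coefficient of variation of 52.2% against 9.87% for TPM1, the steadiest. It had 606, 1322 and 3018 CPM at the lowest, median and highest. The heart exceeded the gonads by 9.98 (standard error 0.762, adjusted p = 9.12e-12, edgeR) and the liver by 6.85 (standard error 0.703, adjusted p = 1.83e-09, edgeR) on the log2 scale. No gonad library was above 2.02 CPM, and the liver ran from 0 counts in fetus 2 to 34.7 CPM in fetus 3.

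Of the alpha actins, ACTC1 had 9416, 14086 and 16236 CPM in the heart at the lowest, median and highest, ACTA2 182, 251 and 352 CPM, and ACTA1 30.3, 39.2 and 63.4 CPM. In the gonads the means were 15.7 ± 3.34 CPM for ACTC1, 7.62 ± 1.11 CPM for ACTA2 and 0.612 ± 0.158 CPM for ACTA1 (SD, n = 8). In the liver they were 418 ± 688 CPM, 91.9 ± 33.3 CPM (SD, n = 7) and, for ACTA1, between 0.392 and 4.30 CPM, so the SD of ACTC1 was larger than its mean. The log2 fold change of ACTC1 was 9.75 over the gonads (standard error 1.29, adjusted p = 3.34e-07, edgeR) and 5.21 over the liver (adjusted p = 0.000231, standard error 1.12, edgeR), and without the livers of fetuses 3, 4 and 5, a choice made after seeing the data, the latter was 10.02. ACTA2 stood apart from the liver by 1.58 on the log2 scale (standard error 0.188, adjusted p = 3.07e-08, edgeR), the smallest separation among the 10 genes. The summed level of 7 smooth muscle and mural cell markers was 856 to 1287 CPM in the heart, 102 to 146 CPM in the gonads and 19.0 to 57.9 CPM in the liver, so these markers and ACTA2 did not rank the gonads and liver alike. The coding sequences of the alpha actins are nearly identical, and reads of their shared stretches may have been split between them or dropped.

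TPM1, the tropomyosin that lies along the actin filament, was present in every organ. It had 3425, 4153 and 4898 CPM in the heart, while gonads averaged 432 ± 39.0 CPM (SD, n = 8) and livers 208 ± 46.8 CPM (SD, n = 7), and its log2 fold changes were 3.28 over the gonads and 4.32 over the liver. TTN had 209, 276 and 309 CPM in the heart, 10.7 ± 1.17 CPM in the gonads and 4.48 ± 3.92 CPM in the liver, with log2 fold changes of 4.69 and 5.99. TTN overlaps 2 annotated loci of the RefSeq assembly ARS-UCD2.0, LOC112442545 and LOC112442546, and reads they share may be missing from its count. The same annotation gives TPM1 29 transcripts, and the counts do not separate them.

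The gonads and the liver differed in 7 of the 10 genes, a share close to the 64.4% of all genes tested that differed (edgeR, adjusted p under 0.05). TPM1 and TTN were higher in the gonads, by 1.04 and 1.302 on the log2 scale. TNNT2, TNNC1, ACTC1, ACTA1 and ACTA2 were lower in the gonads, with log2 fold changes of −2.72, −3.12, −4.55, −1.58 and −3.51. TNNI1, TNNI3 and TNNT1 did not pass the test, with −0.38 (adjusted p = 0.289), 0.53 (adjusted p = 0.123) and −0.12 (adjusted p = 0.836, edgeR). With the fetus as a block, since the organs of a fetus come from the same animal, the difference of ACTC1 was −2.56 and lost the call (adjusted p = 0.173, edgeR). Without the livers of fetuses 3, 4 and 5, the value of ACTC1 was 0.26 (adjusted p = 0.752, edgeR) and that of TNNT1 was 1.68 in favour of the gonads (adjusted p = 6.06e-05, edgeR), while the count stayed at 7. Over all alternatives the value of ACTC1 lay between −5.14 and 0.26, with adjusted p between 1.05e-10 and 0.752.

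A further 28 genes of the thin filament, of the Z disc and of titin's partners were followed by counts. MYOZ2 and XIRP1 were listed at 0 in all libraries. Of the 26 others, 20 were higher in the heart than in gonads and liver alike, against 11.1% of all genes tested, 0 were lower than in both, and their median smaller log2 fold change was 3.10. The largest belonged to MYBPC3 (11.01), a myosin binding protein, and ANKRD1 (10.38), which binds titin. CSRP3 (9.97) of the Z disc and LMOD2 (9.96), which lengthens the thin filament and was listed at 0 in all livers, came next. MYOM1 (5.59) of the M line, TNNT3 (5.51), TRIM63 (5.42), a ubiquitin ligase that binds titin, and ACTN2 (5.37), the actin crosslinker of the Z disc, followed. The fast skeletal genes TNNC2 and TNNI2 had values of −4.73 and −1.83 and were not higher in the heart. The value of TNNC2 rests on the livers of fetuses 3, 4 and 5, since the other 5 held at most 1 count, and its median was 6.91 CPM in the heart against 0.059 CPM in the liver.

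Within each family the share of counts was compared between tissues rather than between genes, because counts grow with transcript length and lengths were not used here. Of the counts of TNNI1, TNNI2 and TNNI3 in a heart, TNNI3 took 75.8% to 84.5% (median 80.0%), TNNI1 15.5% to 24.1% (median 19.9%) and TNNI2 at most 0.167%. In the gonads the median shares were 28.2% for TNNI3, 27.2% for TNNI1 and 44.6% for TNNI2, and in the liver they were 8.12%, 17.0% and 72.4%. The ranges of TNNI3 in the heart did not overlap those of the other organs, in which no library exceeded 32.3%, but the counts there were few (45 to 173 of TNNI3 in the gonads and 10 to 52 in the liver).

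In the heart TNNT2 took 90.8% to 93.8% of the troponin T counts, TNNT1 0.0997% to 0.343%, and the fast skeletal TNNT3 the remaining 6.05% to 9.00%. The share of TNNT3 was 8.63% to 9.00% in fetuses 1, 2, 3, 5 and 6 and 6.05% to 6.97% in fetuses 4, 8, 9 and 10. This split was seen in the values afterwards and was not tested. The slope of TNNT3's own level with weight in the heart did not pass (−0.26, adjusted p = 0.107, edgeR). In the gonads TNNT3 took a median of 76.7%, TNNT1 14.8% and TNNT2 7.98%. TNNC1 took 98.8% to 99.8% of the troponin C counts in the heart, and a median of 53.7% in the gonads. Of the alpha actin counts in the heart, ACTC1 took 97.0% to 98.5%, ACTA2 1.21% to 2.69% and ACTA1 0.204% to 0.441%, whereas the median share of ACTA2 was 31.1% in the gonads and 73.2% in the liver. TPM1 took 61.7% to 76.5% of the tropomyosin counts in the heart, with medians of 47.4% in the gonads and 26.4% in the liver.

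Whether the balance of these forms moved with fetal weight was asked with ratios of counts within a heart library, which do not depend on how libraries are scaled. The ratio TNNI3/TNNI1 was 4.02, 4.22, 5.17, 3.51, 3.15, 3.80, 5.46, 3.40 and 4.96 in fetuses 1, 2, 3, 4, 5, 6, 8, 9 and 10. High and low values occurred among light and heavy fetuses alike. On the log2 scale its Pearson r with weight was 0.22 (exact permutation test, two-sided, p = 0.549, adjusted over 6 ratios, of which 4 are reported, 0.66, n = 9) and its Spearman rho was −0.017 (exact permutation p = 0.982). Without the 2 fetuses farthest from the median weight, r was 0.43.

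The ratio TNNT2/TNNT1 was between 475 and 911 in 8 hearts and 264 in fetus 3, and its r with weight was 0.010 (exact permutation p = 0.981). TPM1/ACTC1 and TTN/ACTC1, which set tropomyosin and titin against cardiac actin, had r of 0.25 and −0.30. None of the 4 ratios passed the test against weight (0 of 4 also at an unadjusted p under 0.05, adjusted exact permutation p at least 0.66). Spearman's rho of the 4 ratios lay between −0.10 and 0.27 (exact permutation p at least 0.493, n = 9, adjusted 0.982), and without the 2 heaviest fetuses r lay between 0.034 and 0.43. Between ET_D9 and ET_D7 hearts the mean log2 ratio of TNNI3/TNNI1 differed by 0.13 (2.11 ± 0.320, SD, n = 4, against 1.98 ± 0.272, SD, n = 5, exact permutation p = 0.548). The adjusted p of all 4 ratios in this comparison was at least 0.733, in a design whose smallest possible p is 0.0159.

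**Figure D2:**
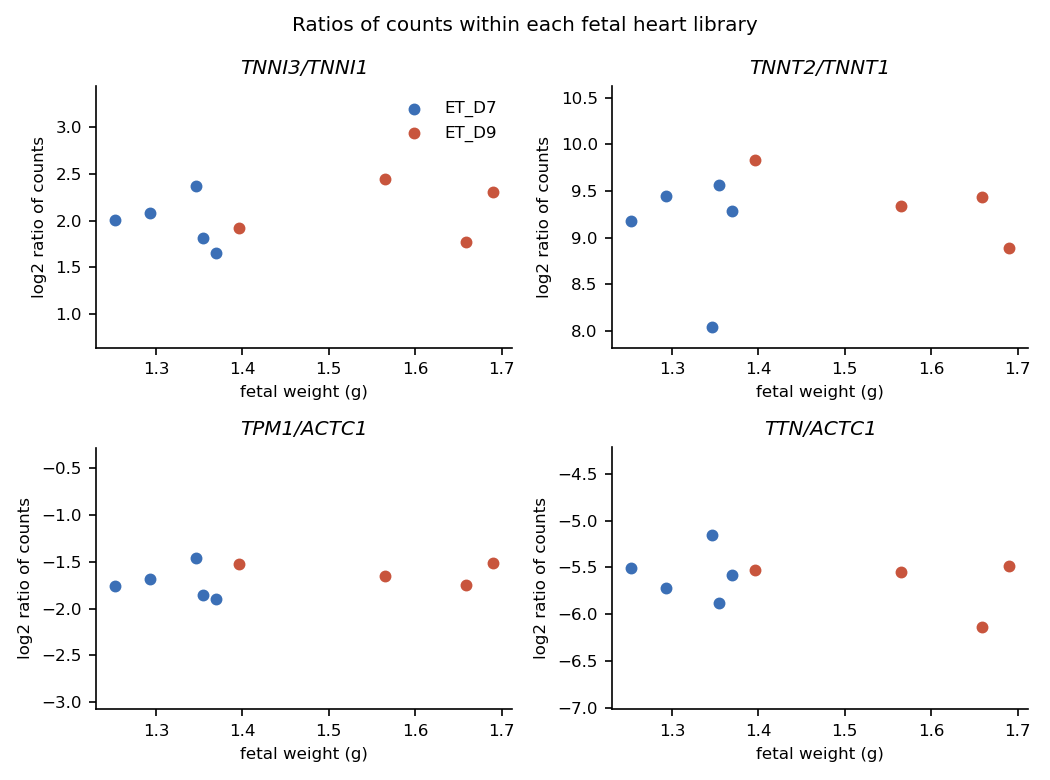
Log2 ratio of counts within each of the 9 heart libraries (vertical axis) against fetal weight in g (horizontal axis), with ET_D7 and ET_D9 fetuses in different colours. The 4 panels span the same number of log2 units. TNNI3/TNNI1 lies between 1.66 and 2.45 with light and heavy fetuses mixed, and fetus 3 stands low in TNNT2/TNNT1 at 8.05.

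In the heart, 1 of the 10 genes had a linear slope with fetal weight that passed the test, against 6.77% of the 16250 genes tested (edgeR's quasi-likelihood test, adjusted p under 0.05). This was TNNC1, which had 869, 606, 1322, 974 and 898 CPM in fetuses 1 to 5 and 1391, 1857, 1558 and 3018 CPM in fetuses 6, 8, 9 and 10. All ET_D9 hearts lay above all ET_D7 hearts. How many of all genes separate the transfer groups completely, in either direction, was not counted. Between the groups 24.6% of all genes had an unadjusted p under 0.05 (edgeR). The slope was 0.37 on the log2 scale per 0.1 g (standard error 0.070, adjusted p = 0.0395, edgeR). It lost the call with transfer group as a covariate (0.29, adjusted p = 0.699, edgeR), without the 2 heaviest fetuses, which are the farthest from the median weight (0.42, adjusted p = 0.427), and without fetus 1, 2, 4, 5, 8 or 10 singly (adjusted p between 0.0653 and 0.354). In each of these settings 0% of all genes tested were called, so the loss was not particular to TNNC1. Over all alternatives tried the slope lay between 0.29 and 0.44 and its adjusted p between 3.90e-05 and 0.699. The heart with the lowest TNNC1, fetus 2, had the highest share of mitochondrially encoded counts (57.3%) and the heart with the highest, fetus 10, had the lowest (17.1%). With the mitochondrially encoded genes left out of the normalization the slope was 0.37 (adjusted p = 0.0414, edgeR).

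The other 9 genes did not pass. TNNT1 had 20.4, 18.1, 21.0, 17.2 and 23.8 CPM in fetuses 1 to 5 and 12.7, 13.4, 14.9 and 12.0 CPM in fetuses 6, 8, 9 and 10. All ET_D9 hearts thus lay below all ET_D7 hearts, but the share of all genes separated in this way was not counted. Between the groups 24.6% of all genes had an unadjusted p under 0.05 (edgeR). The slope of TNNT1, −0.16, did not pass (standard error 0.056, adjusted p = 0.0942, edgeR). TNNT2 also had a slope of −0.16, with more spread between hearts (standard error 0.093, adjusted p = 0.288, edgeR). Over all alternatives tried the slope of TNNT2 lay between −0.24 and −0.074, with adjusted p between 0.0479 and 0.796 (edgeR or DESeq2). TTN had a slope of −0.075 (adjusted p = 0.197, edgeR). Slopes of TNNI1, TNNI3, ACTC1, ACTA1, ACTA2 and TPM1 were −0.070, −0.036, −0.026, −0.11, 0.031 and −0.0022 (adjusted p at least 0.342, edgeR). The median slope of the 10 genes was −0.053 and that of all genes tested −0.014.

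**Figure D3:**
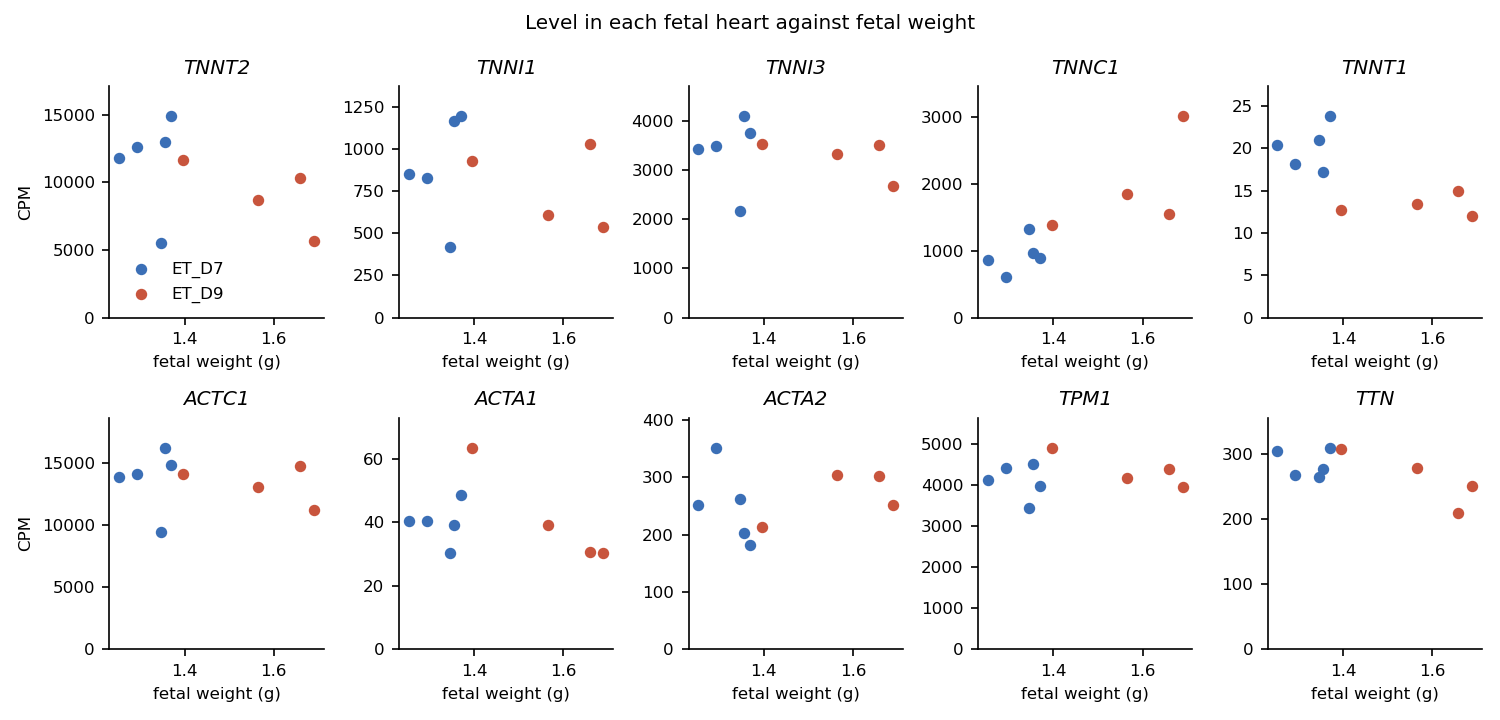
Level of each gene in the 9 hearts (vertical axis, CPM, from 0) against fetal weight in g (horizontal axis), with ET_D7 and ET_D9 fetuses in different colours. TNNC1 is higher, between 1391 and 3018 CPM, in all ET_D9 hearts than in any ET_D7 heart, and TNNT1 is lower, between 12.0 and 14.9 CPM. The share of all genes separated in this way was not counted. In fetus 3 TNNT2, TNNI1, TNNI3 and ACTC1 are low together.

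A spline of weight, the count test nearest to the smooth function that the authors fitted, called 0 of the 10 genes and 0% of all genes tested in the heart (edgeR). At an unadjusted p under 0.05 it held for 1 of the 10, TNNC1 (p = 0.00952, adjusted p = 0.601, edgeR), and for 1298 of all genes. DESeq2 called 1 of the 10 and 3.29% of all genes. Between the transfer groups 0 of the 10 genes were called in the heart, against 0.0492% of all genes (edgeR), while 2 of the 10 and 24.6% of all genes had an unadjusted p under 0.05, and DESeq2 called 2 of the 10 and 13.3% of all genes. These were TNNC1, with a mean of 1956 CPM in ET_D9 against 934 CPM in ET_D7 (log2 fold change 1.07, standard error 0.262, adjusted p = 0.0663, edgeR), and TNNT1, with 13.2 against 20.1 CPM (log2 fold change −0.60, standard error 0.126, adjusted p = 0.0637, edgeR). Without the heart of fetus 3, edgeR called both (adjusted p = 0.0151 and 0.0224), and it called 17.9% of all genes there, a share close to 2 of 10. Over all alternatives the log2 fold change of TNNC1 lay between 0.79 and 1.23 and that of TNNT1 between −0.67 and −0.54, with adjusted p up to 0.206.

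Of the 26 other filament genes tested along weight in the heart, 1 passed, against 6.77% of all genes, and 7 had an unadjusted p under 0.05, a share close to the 29.1% of all genes. The gene that passed was TNNI2, the fast skeletal troponin I, which had a slope of −0.23 (adjusted p = 0.0483, standard error 0.058, edgeR). TNNC2, the fast troponin C, made up 0.193% (fetus 10) to 1.16% (fetus 5) of the troponin C counts of a heart, and its own slope of −0.13 did not pass (adjusted p = 0.272, edgeR).

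The 10 genes did not vary as 1 set across hearts. Over the 9 libraries, the log2 levels of TNNI3 and ACTC1 had a Pearson r of 0.99, TNNI1 and ACTC1 of 0.95, TNNI1 and TNNI3 of 0.93, and TNNT2 and TNNI3 of 0.92, all sharing the low values of fetuses 3 and 10. TNNC1 had negative r with these genes, −0.72 with TNNT2, −0.50 with TNNI1, −0.46 with TNNI3 and −0.46 with ACTC1. Its r was −0.73 with TNNT1, −0.39 with TTN, −0.37 with ACTA1, −0.17 with TPM1 and 0.023 with ACTA2. TNNT1 itself had r of 0.032 with TNNI3 and 0.034 with ACTC1. These points share their libraries and the normalization. Among 9436 genes with a mean of at least 10 CPM in the heart, those with the pattern most like TNNI1 were HSF1 (r of 0.998), SHB (0.99) and COG1 (0.99). For TNNI3 they were ACTC1, SPC24 and NDUFS7 (0.99 each), for ACTC1 HSPB3, TNNI3 and EPHX1 (0.99 each), and for ACTA2 LRRN4 (0.95), RABGAP1L (0.95) and BNIP3L (0.94).

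In the gonads, 0 of the 10 genes and 0% of all genes tested had a slope with weight that passed the test (edgeR). DESeq2 also called 0 of the 10. At an unadjusted p under 0.05 there was 1 of the 10, near the 5.62% of all genes. This was TNNI3, which had a slope of 0.26 (adjusted p = 0.849, standard error 0.110, edgeR) on 45 to 173 counts. A total of 8 of the 10 slopes were above 0, with a median of 0.058.

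Many genes were near 0 in some livers and high in others. Of 11712 genes with at least 200 counts in a liver, 9.32% had at most 1 count in another liver, TNNT2, TNNC1 and ACTC1 among them, while the same share was 0.711% over hearts, 0.379% over gonads and 0.823% over blood libraries. Whether the liver counts were adjusted before deposit is not given in the sources used here, so the liver values of these genes, and the fold changes over the liver, carry that limit. The level of ACTC1 differed widely between fetuses. It had 1, 0, 31997, 8905, 10825, 1039, 390 and 21 counts in fetuses 1, 2, 3, 4, 5, 8, 9 and 10, a span from 0 to 1884 CPM. TNNC1 had 1, 0, 589, 224, 416, 366, 194 and 107 counts in the same libraries, and TNNT2 85, 119, 584, 363, 129, 90, 34 and 1. TNNT1 had 180 counts in fetus 3 and 106 in fetus 4, and between 2 and 55 in the others. Across these livers TPM1 had between 2261 and 6292 counts and TNNI3 between 10 and 52, and ACTA2 had 890 to 4236 counts, highest in fetus 5.

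Genes of skeletal muscle did not share 1 order over the livers. TNNC2, singled out after its values were seen, had 11940, 8721 and 8479 counts in fetuses 3, 4 and 5 and at most 1 in every other liver, and MYH8, a developmental skeletal myosin, had 6000, 4327 and 2243 counts against 0 to 610. MYH8 is 1 of 7 skeletal muscle markers, whose summed level was 12.9 to 411 CPM over the livers, highest in fetus 3, where MYH8 alone gave 353 CPM. The other markers were ordered differently. ACTN3 had 138, 324, 0, 212 and 100 counts in fetuses 1 to 5, MYOG was highest in fetus 8 with 196 counts, and MYH3 had 105 to 894 counts, with 563 and 592 in fetuses 1 and 2. The summed cardiomyocyte markers were 28.3 to 125 CPM, also highest in fetus 3, with NKX2-5 at 0 in every liver. CKM, a defining enzyme of mature skeletal muscle, had 0 to 14 counts. The part of other tissue in these levels was not tested. TTN, with 23 to 218 counts, spanned less than ACTC1, TNNC1 or MYH8.

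**Figure D4:**
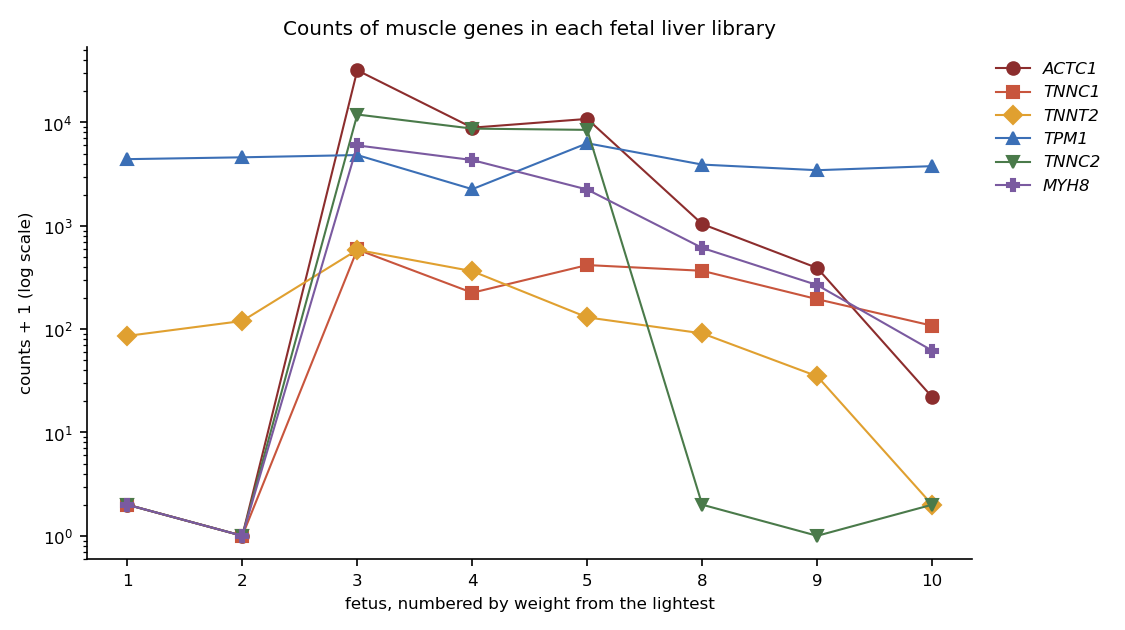
Counts plus 1 (vertical axis, log scale) of 4 of the genes and of the skeletal muscle genes TNNC2 and MYH8 in the 8 liver libraries (horizontal axis, fetus numbered by weight). Lines join the points of a gene and are no trend. ACTC1, TNNC2 and MYH8 are highest in fetuses 3, 4 and 5 and at 1 or 0 counts in fetuses 1 and 2, while TPM1 stays between 2261 and 6292 counts.

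Along weight in the liver, 0 of the 10 genes passed the test, against 2.23% of all genes (edgeR). At an unadjusted p under 0.05 there were 3 of the 10 and 17.2% of all genes, and DESeq2 called 2, TNNT2 and TNNI3, and 9.14% of all genes. The 3 were TNNT2 with a slope of −1.12 (adjusted p = 0.214), TNNI3 with 0.50 (adjusted p = 0.106) and TTN with −0.50 (adjusted p = 0.241, edgeR). Of the other filament genes 1 of 22 passed, MYOM1, with a slope of −2.73 (adjusted p = 0.0432, edgeR). It had 227, 327, 982, 238 and 291 counts in fetuses 1 to 5 and at most 1 in fetuses 8, 9 and 10. MYOM1 is thus among the genes near 0 in some livers and high in others, and the limit given for those counts applies to it. Fetuses 8, 9 and 10 are also the ET_D9 livers, so weight and transfer group cannot be told apart here.

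Whether slopes differed between organs was tested over the 26 organ libraries. The difference passed for 1 of the 10 genes, TNNI3, against 6.2% of the 19635 genes tested (edgeR, organ by weight interaction). Its slope was −0.036 over hearts, 0.26 over gonads and 0.50 over livers (interaction adjusted p = 0.0215, edgeR), where the liver slope rests on 10 to 52 counts. The call was lost without fetus 1, 2, 8 or 10 (adjusted p between 0.0762 and 0.226, edgeR) and without the gonad library of fetus 8 and the liver library of fetus 2, a library of each nearly proportional pair (adjusted p = 0.0614, edgeR). Without the other library of each pair 3 genes passed, TNNT2 (0.0205), TNNI3 (0.0362) and TTN (0.0437), as did 5.86% of all genes. Without fetus 1 or fetus 2, TNNT2 passed in place of TNNI3 (adjusted p = 0.0227 and 0.0494, edgeR). The shares of all genes that passed there were 4.69% and 4.29%.

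Maternal blood libraries were made with another kit than the organ libraries and are given on their own scale. ACTA2 (466 to 1326 counts) and TPM1 (2632 to 12786 counts) were present beside every fetus, TPM1 highest beside fetus 7. TNNT2 and TNNI3, the troponin forms of the heart, had at most 8 and 12 counts in any blood library. ACTC1 had 96 counts beside fetus 2, 38 beside fetus 5 and at most 2 in the others.

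Other genes, among them the slow and skeletal muscle forms, were high in 2 blood libraries. TNNT1 had 21430 counts beside fetus 2, 6110 beside fetus 5 and 188 beside fetus 3, against at most 18 in the others. ACTA1 had 48556, 12498 and 456 counts and at most 144 in the others. TNNI1 had 9257 and 2515, TNNC1 9168 and 3278, and TTN 5637 and 594 counts beside fetuses 2 and 5, with medians of 2, 0 and 116 in the other 8. Those 2 libraries lay above all others for 6 of the 10 genes and for 18 of the 28 other filament genes, against 3.49% of the 22608 genes with any count in blood, and they were picked out after these values were seen. They did so for 2 of 7 skeletal muscle markers (CKM with 10948 and 3226 counts, and MYH8 with 266 and 7) and for 3 of 7 cardiomyocyte markers. Of the latter, MYH7, the myosin of slow skeletal muscle and ventricle, had 144426 and 29233 counts, MYH6 878 and 329, and RYR2 17 and 11. Elsewhere RYR2 reached 14 counts, so its place rests on CPM near the floor (0.393 and 0.412 against at most 0.353). MYL7, an atrial light chain, was at 0 beside fetuses 2 and 5. The part of muscle tissue in these blood samples was not tested.

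**Figure D5:**
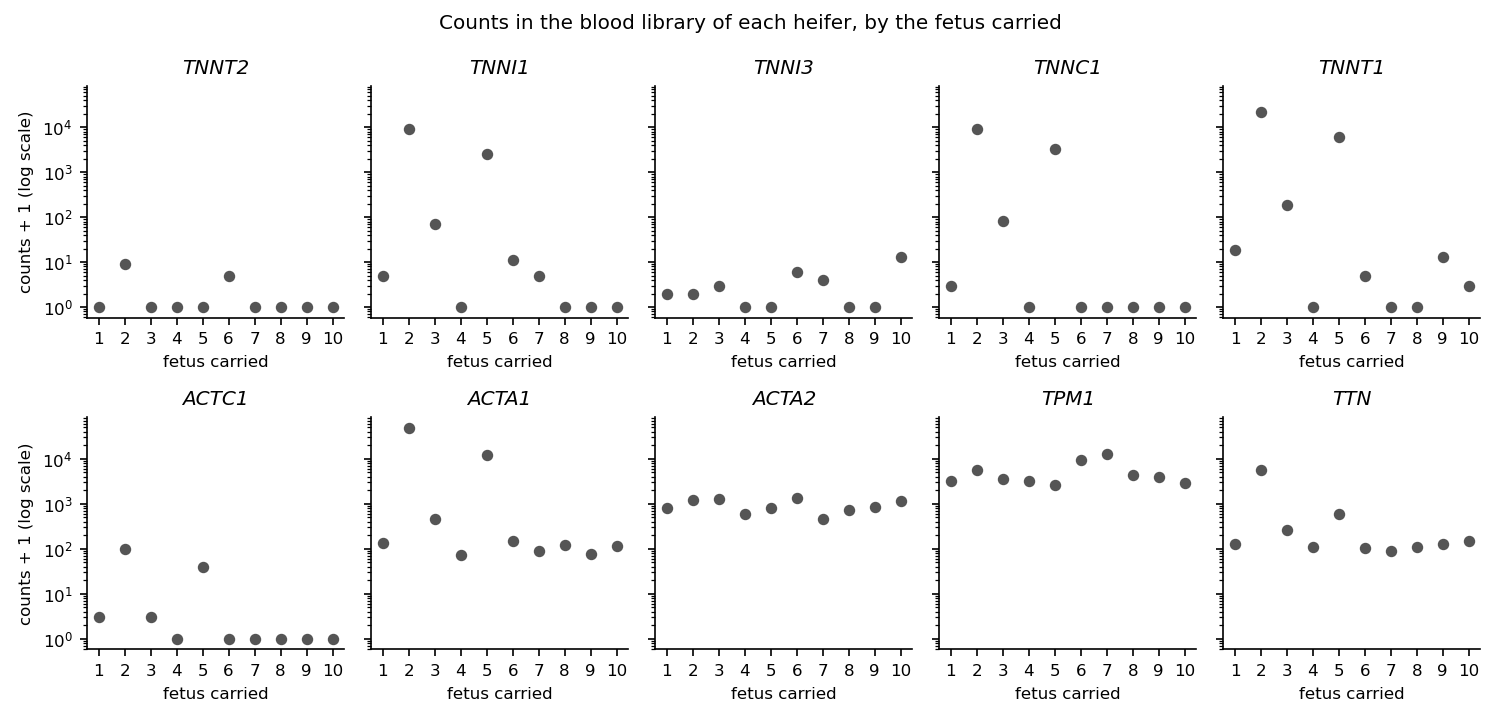
Counts plus 1 (vertical axis, log scale) of each gene in the blood of the heifers, by the number of the fetus carried (horizontal axis). TNNI1, TNNC1, TNNT1, ACTA1 and TTN are high beside fetuses 2 and 5, with 48556 and 12498 counts of ACTA1. ACTC1 is also higher there than in the other libraries, but at 96 and 38 counts. ACTA2 and TPM1 are present throughout and TNNT2 and TNNI3 are near 0.

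Along the weight of the fetus carried, 6 of the 10 genes had enough counts in blood to be tested, and 0 of them passed, as did 0% of all genes tested (edgeR). At an unadjusted p under 0.05 there were 4 of the 6 and 9.69% of all genes, and DESeq2 called 2, TNNI1 and ACTA1, and 0.718% of all genes. The 4 were TNNI1 with a slope of −3.57, TNNT1 with −3.27, ACTA1 with −2.06 and TTN with −0.99 (adjusted p between 0.387 and 0.413, edgeR). Without the blood libraries beside fetuses 2 and 5, a choice made after seeing the data, the slopes of ACTA1 and TTN were −0.32 and −0.12, and TNNI1 and TNNT1 no longer had enough counts.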

How the data were processed

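RNA of fetal heart, gonads, liver and maternal blood was sequenced in 36 paired-end libraries, with a TruSeq stranded mRNA kit for the organs and a SMARTer stranded kit for blood. The authors checked reads with FastQC 0.11.9, trimmed them with Trimmomatic, mapped them to ARS-UCD1.3 (STAR 2.7.0b), ran featureCounts (Subread 2.0.3) per gene and deposited whole-number counts, with no normalization stated. Counting options for strand, pairs and multi-mapping reads are not given in the sources used here. Among counts from 1 to 49, 82.9% to 86.7% were even in blood libraries and 48.1% to 71.5% in organ libraries, a feature of the deposited counts whose cause was not tested.

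Of 35092 Entrez identifiers, 31630 matched the RefSeq gene table (ARS-UCD2.0), which was used for symbols, neighbours and transcript numbers only. Organs were compared with edgeR 4.0.16 (R 4.3.3) in 1 fit over 26 libraries, for genes with any count. Slopes with fetal weight, a natural spline of 3 degrees of freedom and the transfer groups were tested per tissue, for genes reaching 10 counts in 4 or more libraries, with TMM normalization and adjustment over all genes tested. Fitted slopes and fold changes used all libraries, including the nearly proportional pairs. Ratios within hearts used counts plus 0.5 and exact permutation tests, adjusted over 6 ratios, of which 2 are not reported here. DESeq2 1.42.0, other normalizations, other filters, transfer group as a covariate, the fetus as a block and leaving out each fetus were the alternatives. Libraries of different organs were paired by the fetus they came from (same animal), read from the number in the library titles. The labelled fetal weight set the order of the fetuses. The correlations of same-fetus deviations between organs ran from −0.43 to 0.48. The linear slope fit in the heart and a fit of heart against the other organs were tried on simulated counts. Those were independent libraries with the same spread for every gene. The other fits were not tried in this way. Replicates are different fetuses.

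The 10 genes were all named. Of a list of 28 further filament genes, those named have the 8 largest sizes of log2 fold change of heart over the higher other organ, or pass the weight test in heart. TNNC2 and other genes were named after their values were seen. The genes and lists were chosen with earlier results of these data known.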

Additional observations from a re-analysis of the deposited data

Results flagged for a closer look

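A library was singled out where its gap to the next was too large for Dixon's test at the 95% level. Of 44 groups of libraries tested, 10 held such a library. The rate of about 1 in 20 that belongs to this level assumes independent groups of normally distributed values. The groups here share libraries and their CPM were taken untransformed, so the 10 cannot be set against that rate. In maternal blood, the library beside fetus 2 stood high in ACTA1 (1122 CPM), TNNI1 (214 CPM), TNNT1 (495 CPM) and TTN (130 CPM), the library beside fetus 10 in TNNI3 (0.304 CPM, from 12 counts) and the library beside fetus 7 in TPM1 (481 CPM). In the liver, fetus 3 stood high in ACTC1 (1884 CPM), TNNC1 (34.7 CPM) and TTN (12.8 CPM). In the gonads, fetus 9 stood high in TPM1 (515 CPM).

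TNNI3 had slopes with weight that differed between the 3 organs (interaction adjusted p = 0.0215, edgeR). The heart slope was −0.036, the gonad slope 0.26 and the liver slope 0.50 per 0.1 g. Of all genes tested, 6.2% passed the same test. The call was lost without fetus 1, 2, 8 or 10, and the liver slope rests on 10 to 52 counts.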

How the results depend on the processing

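The higher level of all 10 genes in the heart, and the absence of a call in gonad slopes and in the ratios, held under every alternative tried. The calls along weight were less stable, and the signs of slopes that had not passed the test changed often. The cause of these changes was not tested. Settings that leave out particular liver, gonad or blood libraries were chosen after seeing the data. The number of genes called with a weight slope in the heart was 1, and 0 with transfer group as a covariate or without the 2 heaviest fetuses, and 0 to 2 on leaving out each fetus, when the share of all genes called ran from 0% to 24.8% (without fetus 3) and was 0% wherever the count was 0. DESeq2 called 2 genes between the transfer groups in the heart (edgeR 0, and 0 to 2 on leaving out each fetus), 2 in liver slopes (0 to 1), 2 in blood slopes and 1 by the spline in the heart. The count of genes whose slopes differed between organs was 1, was 0 to 1 on leaving out each fetus, and was 0 or 3 without either library of the nearly proportional pairs. The gene called was TNNT2 rather than TNNI3 without fetus 1 or fetus 2.

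With the fetus as a block, the paired fit of the organs, the gonads over liver value of TNNT1 became 0.51 (−0.12 without the block) and the call of ACTC1 was lost, while all 10 genes stayed higher in the heart and the interaction of TNNI3 kept its call (adjusted p = 0.0122, edgeR). The block changed no other call. Without the livers of fetuses 3, 4 and 5 the gonads over liver values of ACTC1, TNNI1 and TNNT1 became 0.26, 0.30 and 1.68. On leaving out each fetus that of TNNI1 was −0.57 to 0.023 and that of TNNT1 −0.31 to 0.58.

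With transfer group as a covariate, slopes in the gonads became −0.11 for ACTA1, −0.013 for TNNC1, −0.038 for TNNI3, −0.077 for TNNT1, −0.10 for TNNT2 and 0.041 for TTN, those in the liver 0.62 for ACTA2, 0.66 for ACTC1, 1.72 for TNNC1, 0.20 for TNNI1, 0.44 for TNNT1, 0.22 for TPM1 and 0.37 for TTN, and those of TNNT1 in the heart and TPM1 in blood 0.026 and −0.70. Without the 2 heaviest fetuses the heart slopes of ACTA1 and TPM1 became 0.033 and 0.0040, the liver slopes of ACTA1, ACTA2, TNNC1 and TNNI1 became 0.21, 0.28, 0.86 and 0.16, the gonad slopes of ACTA2 and ACTC1 became −0.061 and −0.030, and the r of TTN/ACTC1 became 0.034. The heart slope of TPM1 was 0.012 with RLE size factors and 0.012 with DESeq2, and its blood slope was −0.0048 without the libraries beside fetuses 2 and 5. Spearman's rho was −0.017 for TNNI3/TNNI1. After each transfer group's mean was taken out, r was −0.43 for TNNT2/TNNT1 and −0.20 for TPM1/ACTC1.

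On leaving out each fetus, slopes ran from −0.28 to 0.016 (ACTA1, liver), −0.034 to 0.033 (ACTA2, gonads), −5.21e-06 to 0.092 (ACTA2, heart), −0.11 to 0.057 (ACTA2, liver), −0.029 to 0.099 (ACTC1, gonads), −0.065 to 0.014 (ACTC1, heart), −0.25 to 0.29 (TNNC1, liver), −0.18 to 0.010 (TNNI1, heart), −0.070 to 0.0088 (TNNI3, heart), −0.018 to 0.017 (TPM1, heart) and −0.11 to 0.25 (TPM1, blood). The log2 fold changes of ET_D9 over ET_D7 hearts ran from −0.25 to 0.17 (ACTA1), −0.0055 to 0.27 (ACTA2), −0.15 to 0.036 (ACTC1) and −0.18 to 0.035 (TNNI3). For the ratios, r ran from −0.35 to 0.20 (TNNT2/TNNT1) and −0.51 to 0.11 (TTN/ACTC1), and the group difference from −0.18 to 0.048 (TTN/ACTC1).

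Depth limits the troponins outside the heart, where livers held 10 to 52 counts of TNNI3, and fetus and library cannot be told apart with 1 library per organ and fetus.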
